A study of Mus musculus with 55 samples.

Results

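The mouse mitochondrial genome carries 37 genes, and all 37 had counts listed in each of the 3 depot tables of this series, out of 31933 genes per table. They were taken as the genes whose GENCODE symbol starts with mt-, and they comprise 13 protein genes, 2 ribosomal RNA (rRNA) genes and 22 transfer RNA (tRNA) genes. The study asked how housing temperature changes the effects of a glucocorticoid on different fat depots. Male 10-week-old C57BL/6NRj mice, with no transgene or mutation named in the labels, drank water with corticosterone (GC, the chief glucocorticoid hormone in this species) or with placebo (Ctrl) over 4 weeks, in cold housing at 13 °C (CT) or at room temperature of 22 °C (RT). Areas of 3 depots, iBAT (interscapular, brown), goWAT (gonadal, white) and scWAT (subcutaneous, white), were cut out of cryosections by laser capture, and about 2 ng of RNA per sample was sequenced with the SMART-Seq2 protocol. The GC_RT group (corticosterone at 22 °C) held 5 libraries in each depot, GC_CT (corticosterone at 13 °C) held 5 in iBAT and goWAT and 4 in scWAT (numbers 1, 3, 4 and 5), Ctrl_CT (placebo at 13 °C) held 5 in each depot, and Ctrl_RT (placebo at 22 °C) held 3 in iBAT and 4 in each white depot. Neither the corticosterone dose nor the rule for capturing areas is known from the sources used.

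Mitochondrial DNA is a circle that is transcribed from both strands as long precursors, from which the tRNAs are cut out and the messenger and ribosomal RNAs between them are released. Its protein genes encode core subunits of the respiratory chain (complex I, complex III and complex IV) and of the ATP synthase (complex V), which are assembled with many more subunits from nuclear genes, while its rRNAs and tRNAs serve the mitochondrion's own ribosomes. In brown fat, mitochondria are abundant and burn fuel for heat, whereas a white fat cell, filled by a single lipid droplet, holds far fewer.

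Part of this genome has a copy in the nuclear genome, and the sequences are shown because reads of the gene and of its copy cannot be told apart where both are identical. Bases 6381 to 11042 of chromosome M (4662 bases of GRCm38, the assembly also called mm10) correspond, by the annotated copies, to a stretch of 4663 bases on the minus strand of chromosome 1, at chr1:24611535-24616197, in which GENCODE M21 annotates 7 pseudogenes. In the annotated transcripts, the copies of mt-Co2 (Gm28661), mt-Atp6 (Gm10925), mt-Co3 (Gm28437), mt-Nd4l (Gm10222) and mt-Nd4 (Gm28439) were identical to the mitochondrial gene over their length. The copy of mt-Co1 (Gm29216) differed at 6 bases, T1056A, C1057T, A1059G, A1060G, C1062A and A1066T, and the copy of mt-Nd3 (Gm28438) differed at T3C, with positions counted from 1 at the 5′ end of the mitochondrial gene, its base first. The first 60 bases of the shared part of mt-Co1 (chrM:6381-6440, plus strand), mt-Co2 (chrM:7013-7072) and mt-Nd3 (chrM:9459-9518) are set beside those of their copies, from the GENCODE M21 transcripts, 5′ to 3′, with bases that differ in capitals.
mt-Co1: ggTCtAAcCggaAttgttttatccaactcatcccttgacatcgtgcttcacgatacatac
Gm29216: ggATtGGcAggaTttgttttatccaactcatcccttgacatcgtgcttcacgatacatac
mt-Co2: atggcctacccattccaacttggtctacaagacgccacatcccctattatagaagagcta
Gm28661: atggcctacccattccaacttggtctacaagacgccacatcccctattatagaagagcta
mt-Nd3: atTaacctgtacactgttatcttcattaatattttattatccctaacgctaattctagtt
Gm28438: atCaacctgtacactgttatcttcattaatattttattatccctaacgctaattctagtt
A read from a part that is identical in both fits both places equally well. The stretches differ in length by 1 base, and the parts between the annotated copies, which hold tRNA genes and most of mt-Atp8, were not compared.

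The tRNA genes lie between the other genes and act as the cutting points of the precursor. The 6 shown are those with the 4 largest fold changes in the comparison on which the results turn (mt-Tv for valine, mt-Tg for glycine, mt-Tf for phenylalanine and mt-Tq for glutamine), mt-Ts1 for serine, which was called in a second comparison, and mt-Tc for cysteine, which had the smallest adjusted p of the interaction in the same depot. They are written on the strand of the gene with the anticodon in capitals, and mt-Tq, mt-Ts1 and mt-Tc are encoded on the minus strand.
mt-Tv (chrM:1025-1093): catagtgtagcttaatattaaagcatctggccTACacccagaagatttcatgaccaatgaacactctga
mt-Tg (chrM:9391-9458): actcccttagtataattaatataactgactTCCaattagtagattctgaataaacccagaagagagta
mt-Tf (chrM:1-68): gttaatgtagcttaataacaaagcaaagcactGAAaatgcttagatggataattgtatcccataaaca
mt-Tq (chrM:3772-3842): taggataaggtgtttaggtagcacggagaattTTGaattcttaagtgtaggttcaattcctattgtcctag
mt-Ts1 (chrM:6870-6938): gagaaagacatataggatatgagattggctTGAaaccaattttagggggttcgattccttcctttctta
mt-Tc (chrM:5192-5257): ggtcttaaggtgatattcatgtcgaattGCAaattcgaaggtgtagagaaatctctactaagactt
The arrangement is seen where mt-Tv joins the rRNA genes mt-Rnr1 and mt-Rnr2 with no base between them, at chrM:995-1123, with the tRNA gene in capitals.
mt-Rnr1/mt-Tv/mt-Rnr2: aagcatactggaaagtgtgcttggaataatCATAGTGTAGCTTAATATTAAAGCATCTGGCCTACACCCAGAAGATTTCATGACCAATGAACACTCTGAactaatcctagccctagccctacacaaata
Libraries of this protocol mark no strand, so reads of opposite transcripts cannot be told apart. The minus strand holds 8 of the 22 tRNA genes and mt-Nd6. Whether strand was used in counting is not given in the sources used here. A count in a tRNA gene is therefore a count of reads over that stretch, and whether those reads came from mature tRNA, precursors or the opposite strand was not tested.

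Total counts per library, in M (mega), ran from 14.0 to 35.8 in iBAT libraries, while goWAT libraries had 12.3 to 53.1 and scWAT libraries 8.62 to 56.5. The 101 pairs of libraries within groups correlated at 0.872 to 0.972, and 0 pairs were identical. The summed level of 12 brown adipocyte markers was 6712 to 43957 CPM (counts per M of the scaled library size) in iBAT, 23.8 to 1963 CPM in goWAT and 70.7 to 3452 CPM in scWAT, so brown fat stood apart as labelled. Within goWAT, GC_RT 1 and GC_CT 1 stood apart with 1433 and 2133 CPM of these markers on the scale of that depot, against 27.3 to 158 CPM in the other goWAT libraries. In scWAT, GC_RT 2 and 3 stood apart with the highest macrophage markers (up to 12318 CPM). There, the 15 skeletal muscle markers summed to 3129 CPM in GC_RT 2 and 775 CPM in Ctrl_RT 1. The other scWAT libraries had 60.1 to 232 CPM of them. In iBAT they summed to 1207, 536 and 501 CPM in GC_CT 4, Ctrl_CT 4 and Ctrl_RT 3, against 58.3 to 273 CPM elsewhere. In goWAT, GC_RT 2 had 447 CPM of them, against 65.5 to 257 CPM in the others. The part of muscle in the results was not tested. The labels do not tie libraries to animals, so p-values measure the spread between these libraries, which may be technical.

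Mitochondrial transcripts took 17.7% ± 5.24 of all counts in iBAT (SD, n = 18), 4.47% ± 2.13 in goWAT (n = 19) and 6.08% ± 1.99 in scWAT (n = 18). The shares ran from 11.4% to 29.5% in iBAT, which did not overlap the 1.67% to 9.87% of goWAT or the 2.36% to 9.03% of scWAT. Over all libraries, the protein genes held 85.9% of these counts, the rRNA genes 13.2% and the tRNA genes 0.862%. These are shares of counts. How fully the protocol captures each class of RNA, here and in the levels below, was not tested. In bulk RNA, fewer cells of a type and less RNA per cell cannot be told apart, which applies to every level given here.

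**Figure D1:**
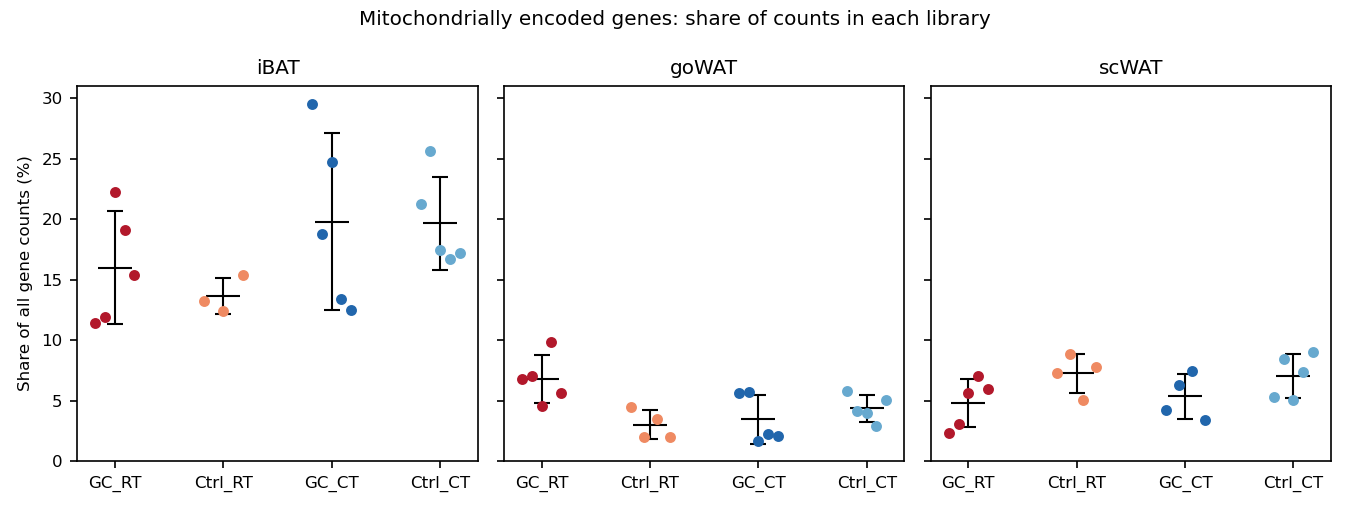
Share of all counts in the 37 mitochondrially encoded genes (percent, vertical axis), 1 point per library, by depot and group, with the mean and SD of each group as horizontal and vertical lines. All iBAT libraries sit at 11.4% or more and all white fat libraries at 9.87% or less, and the goWAT GC_RT libraries sit at 4.53% to 9.87%, above the 2.00% to 4.48% of goWAT Ctrl_RT.

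Levels of different genes were compared as counts per kilobase of gene and per M total counts of the library, called the level per kilobase. mt-Cytb, the mitochondrially encoded subunit of complex III, was the highest, with 24367, 41645 and 77396 (lowest, median and highest library) in iBAT libraries, 3528, 10774 and 20679.7 in those of goWAT and 4733, 12657 and 20431 in those of scWAT. mt-Nd1, a complex I subunit of the membrane arm, came next by its median in iBAT (24059), goWAT (6136) and scWAT (8445), and its range overlapped that of mt-Cytb in each depot. The catalytic complex IV subunit mt-Co1 and the complex I subunit mt-Nd4 had medians close to each other, with 13915 and 14400.1 in iBAT, then 5331 and 4447 in goWAT, plus 5892 and 6875 in scWAT. The complex I subunits mt-Nd5 and mt-Nd6 had median levels per kilobase of 3504 and 10011 in iBAT and of 1742 and 3069 in goWAT.

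Protein genes that lie wholly inside the copied stretch sat far below those wholly outside it by median level. The 6 genes wholly inside it (mt-Co2 and mt-Co3 of complex IV, mt-Atp8 and mt-Atp6 of the ATP synthase, mt-Nd3 and mt-Nd4l of complex I) had median levels per kilobase of 181 to 1422 for iBAT, 46.6 to 233 for goWAT and 64.3 to 578 for scWAT. The 5 wholly outside it (mt-Nd1, mt-Nd2, mt-Nd5, mt-Nd6, mt-Cytb) had 3504 to 41645 for iBAT, 1742 to 10774 for goWAT and 1777 to 12657 for scWAT, so the lists did not overlap in any depot. The 2 partly inside it, mt-Co1 and mt-Nd4, fell within the range of the outside genes. Counts were also assigned to the pseudogenes on chromosome 1, with a median of 5028 counts for Gm28661 against 8856 for mt-Co2, 10314 for Gm10925 against 9073 for mt-Atp6, and 3686 for Gm28438 against 1278 for mt-Nd3. How the authors' counting treated reads that fit both places is not given in the sources used here, and its part in these levels was not tested. The levels of the 6 inside genes are thus uncertain, including those of mt-Atp8, for which no pseudogene is annotated in the copy.

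**Figure D2:**
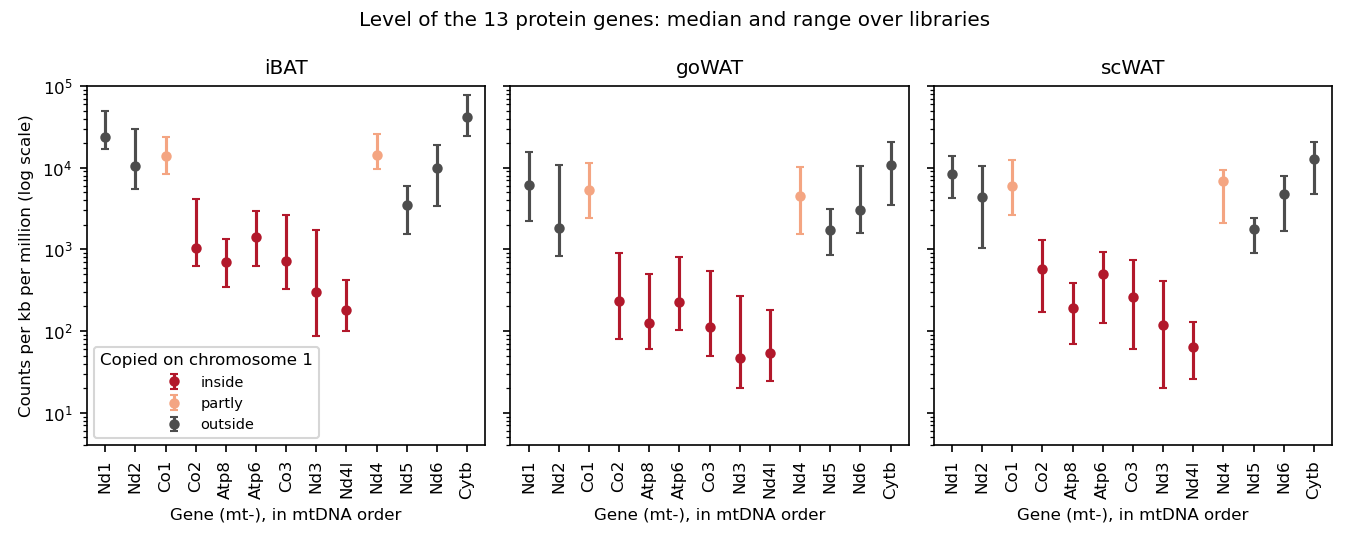
Level of each of the 13 protein genes in the 3 depots (counts per kilobase and per M total counts, log axis), in the order of the genes along mitochondrial DNA, as the median (point) and range (line) over libraries, coloured by place relative to the stretch copied on chromosome 1. The medians of the 6 genes inside it lie at 46.6 to 1422 and those of the 5 outside it at 1742 to 41645.

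Of the rRNAs, mt-Rnr2 (16S, of the large ribosomal subunit) was above mt-Rnr1 (12S, of the small subunit) by its median in every depot, with 14496 and 3719 per kilobase in iBAT, then 1756 and 208 in goWAT, plus 2681 and 571 in scWAT. Among the tRNA genes, mt-Tq, mt-Tp (proline), mt-Te (glutamate) and mt-Ts1 had the highest medians in iBAT, at 12208, 2124, 1521 and 1059.8 per kilobase, and all 4 are on the minus strand. These genes are only 67 to 71 bases long, and the part of reads that reach into adjoining genes in these levels was not tested. The lowest tRNA genes were mt-Ty (tyrosine), mt-Td (aspartate), mt-Tk (lysine) and mt-Tr (arginine), which failed the filter on low counts in every depot. With mt-Th (histidine) also failing in goWAT and mt-Tg failing in scWAT, 33 members were tested in iBAT, 32 in goWAT and 32 in scWAT.

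All tested members were higher in iBAT than in either white depot, and most were lower in goWAT than in scWAT. Each depot was taken as the mean of its 4 group means in 1 edgeR quasi-likelihood fit over the 55 libraries, with Benjamini-Hochberg adjustment over 22245 genes and a call at an adjusted p under 0.05. In iBAT against goWAT, 33 of 33 members were higher (57.4% of all genes were called, 23.3% higher), with a median log2 fold change of 2.83 beside -0.20 over all genes. In iBAT against scWAT, 33 of 33 were higher (44.6% of all genes were called, 18.1% higher), with a median of 1.81 beside -0.15. The difference between brown and white fat ran from 1.39 ± 0.16 (SE) for mt-Nd5 to 4.74 ± 0.36 for the isoleucine tRNA gene mt-Ti against goWAT, and from 1.16 ± 0.31 for mt-Ts1 to 2.99 ± 0.34 for mt-Ti against scWAT. By class, the medians in iBAT against goWAT were 2.58 for protein genes, 3.84 for rRNA genes and 3.06 for tRNA genes. The 76 nuclear genes for subunits of complexes I to V gave 74 higher and 1 lower, with a median of 2.35.

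In goWAT against scWAT, 21 of 33 members were lower and 0 higher (18% of all genes were called, 9.12% lower and 8.91% higher). The lower members included mt-Co3 (log2 fold change -1.33 ± 0.27, adjusted p = 0.00039 in edgeR), mt-Nd2 (-1.07 ± 0.23, adjusted p = 0.000567), mt-Rnr1 (-1.22 ± 0.31) and mt-Tl1 for leucine (-1.32 ± 0.23). Among the 12 members that were not called, mt-Nd5 had 0.07 ± 0.16 and mt-Cytb -0.44 ± 0.19. Of the nuclear subunit genes, 52 of 76 were lower and 0 higher, with a median of -0.56. With the total count of each library as a covariate, 13 members were lower.

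Corticosterone at 22 °C went with higher mitochondrial counts in goWAT, and this was the comparison with the most members called among those between treatments or temperatures. Of 32 tested members, 19 were higher in GC_RT than in Ctrl_RT and 0 lower, where 5.98% of all 20175 tested genes were called and 3.13% were higher. The median log2 fold change was 1.51 over the protein genes, 2.06 over the rRNA genes and 2.60 over the tRNA genes, beside 0.05 over all tested genes. Depth moved with this result, since total counts were 20.9, 12.3, 29.4, 18.3 and 38.3 M in GC_RT 1 to 5, against 40.0, 32.0, 39.3 and 47.5 M in Ctrl_RT 1 to 4. With total count as a covariate, 0 members were called and the median over members was 0.88, and without the shallowest libraries, GC_RT 2 and 4, 4 were called with a median of 1.26. The share of all counts in members was 6.81%, 7.04%, 4.53%, 9.87% and 5.60% in GC_RT, against 4.48%, 2.02%, 3.49% and 2.00% in Ctrl_RT, so the groups did not overlap.

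Among the protein genes, 4 of 13 were higher, and all 4 lie inside the copied stretch. mt-Co2, which takes up the electrons of cytochrome c in complex IV, had 684, 963, 280.0, 466 and 215 CPM in GC_RT 1 to 5, against 151, 51.5, 168 and 67.6 CPM in Ctrl_RT 1 to 4. All GC_RT libraries were above all Ctrl_RT libraries, and the log2 fold change was 2.25 ± 0.44 (SE; adjusted p = 0.00361, edgeR). mt-Co3, a further core subunit of complex IV, had 218, 322, 107, 412 and 126 CPM in GC_RT, against 101, 37.3, 90.9 and 54.6 CPM in Ctrl_RT. Its groups did not overlap either, and it differed by 1.74 ± 0.41 on the log2 scale (adjusted p = 0.0137). mt-Atp6, the proton channel subunit of the ATP synthase, had 517, 711, 256, 536 and 149 CPM in GC_RT, against 164, 65.8, 159.7 and 74.5 CPM in Ctrl_RT. Only GC_RT 5 fell among the Ctrl_RT values, and the difference was 1.90 ± 0.46 (adjusted p = 0.0154). mt-Atp8, a small membrane subunit of the same enzyme whose gene overlaps mt-Atp6, had 103, 103, 43.9, 99.7 and 22.9 CPM in GC_RT, against 27.2, 11.7, 26.5 and 12.6 CPM in Ctrl_RT. GC_RT 5 again lay within the Ctrl_RT range, and the difference was 1.93 ± 0.48 (adjusted p = 0.0202).

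The other 9 protein genes had positive fold changes that did not pass the threshold. mt-Nd1 (1.59 ± 0.48, adjusted p = 0.0503), mt-Co1 (1.30 ± 0.39, adjusted p = 0.0505) and mt-Nd4l (1.59 ± 0.48, adjusted p = 0.0522) lay just outside it in edgeR. mt-Cytb had 1.37 ± 0.42, mt-Nd4 1.35 ± 0.42, mt-Nd2 1.51 ± 0.49 and mt-Nd3 1.40 ± 0.54 on the log2 scale. The smallest were those of the complex I genes mt-Nd6 and mt-Nd5, which overlap at their ends on opposite strands. mt-Nd6 had 1423, 2874, 1502, 5330.4 and 1954 CPM in GC_RT, against 2374, 986, 1635 and 989 CPM in Ctrl_RT. Its groups overlapped widely, with GC_RT 4 the highest, and the difference was 0.81 ± 0.40 (adjusted p = 0.239). mt-Nd5 had 3516, 4974, 2777, 5143 and 2576 CPM in GC_RT, against 4079.8, 1904, 2367 and 1762 CPM in Ctrl_RT, a difference of 0.59 ± 0.37 (adjusted p = 0.365). As a share of the counts in the 13 protein genes, mt-Nd5 took 4.81, 4.89, 5.92, 6.15 and 6.68% in GC_RT, against 10.00, 10.4, 7.51 and 9.18% in Ctrl_RT. The GC_RT shares all lay under those of Ctrl_RT, and also under the 8.59, 8.85, 10.1, 8.60 and 9.25% of GC_CT and the 10.4, 10.7, 11.3, 9.61 and 10.2% of Ctrl_CT.

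**Figure D3:**
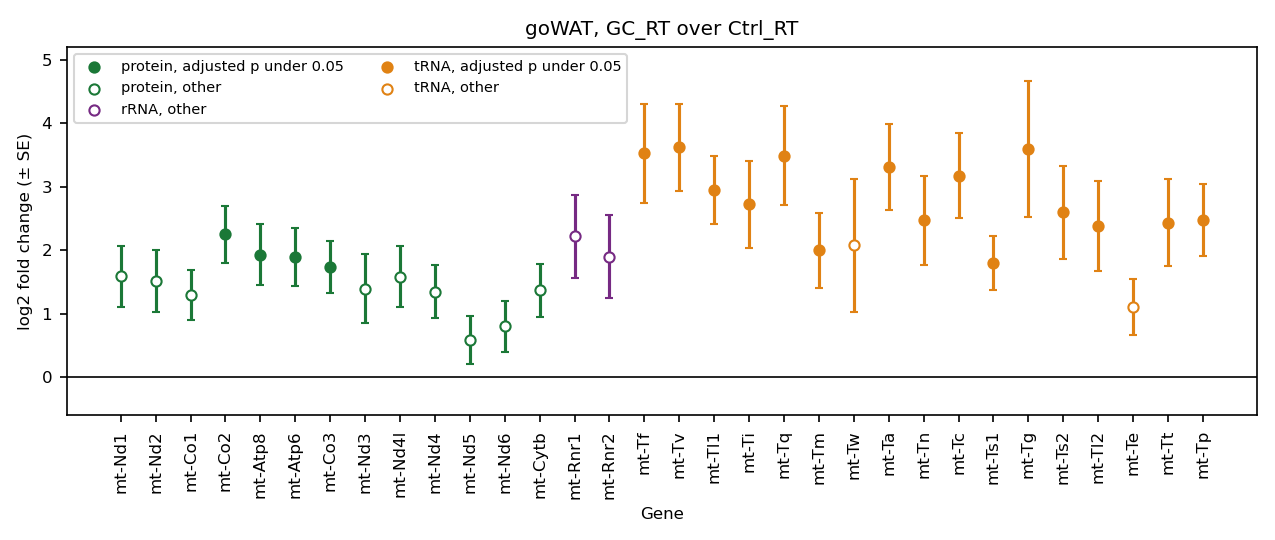
Log2 fold change of GC_RT over Ctrl_RT in goWAT for the 32 tested members, with lines of ± 1 SE, by class of gene and filled where the adjusted p was under 0.05. All 32 lie above 0, from 0.59 for mt-Nd5 to 3.62 for mt-Tv, and 4 protein genes and 15 tRNA genes are filled.

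The rRNA genes had large fold changes with wide errors. mt-Rnr1 had 394, 400.5, 279, 1235 and 639.7 CPM in GC_RT 1 to 5, against 151, 64.5, 204 and 87.5 CPM in Ctrl_RT 1 to 4. The groups did not overlap, and the difference of 2.22 ± 0.66 had an adjusted p of 0.0527 in edgeR. mt-Rnr2 had 6737, 7142, 3109.8, 8690.0 and 5790.4 CPM in GC_RT, against 1361, 568, 3942 and 871 CPM in Ctrl_RT. Ctrl_RT 3 lay above GC_RT 3, and the difference was 1.90 ± 0.65 (adjusted p = 0.0859). At 13 °C, mt-Rnr1 had 476, 1251, 122, 159 and 131 CPM in GC_CT and 275, 108, 186, 119 and 201 CPM in Ctrl_CT, with GC_CT 2 far above the rest, and mt-Rnr1 differed by 1.26 ± 0.59 (adjusted p = 0.312).

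Of the 17 tested tRNA genes, 15 were higher in GC_RT, by log2 fold changes of 1.80 to 3.62. The valine gene mt-Tv, whose tRNA is a structural part of the mitochondrial ribosome in humans, had 0.680, 4.96, 1.37, 10.4 and 2.30 CPM in GC_RT, against 0.356, 0.266, 0.313 and 0.320 CPM in Ctrl_RT. Every GC_RT library was higher, GC_RT 4 most of all, and the difference was 3.62 ± 0.68 (adjusted p = 0.00275, edgeR). The phenylalanine gene mt-Tf, the first gene of the precursor that carries the rRNAs, had 0.624, 0.636, 0.381, 2.08 and 0.803 CPM in GC_RT, against 0.0949, 0.118, 0.0261 and 0.0640 CPM in Ctrl_RT. Its groups did not overlap, and the difference was 3.53 ± 0.78 (adjusted p = 0.0081) at a level of few counts. The leucine gene mt-Tl1, which follows mt-Rnr2, had 2.89, 3.69, 2.29, 5.55 and 2.85 CPM in GC_RT, against 0.593, 0.237, 0.731 and 0.213 CPM in Ctrl_RT. It had the smallest adjusted p of all members, 0.00197, with a difference of 2.95 ± 0.53.

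The glutamine gene mt-Tq, on the minus strand between mt-Ti and mt-Tm, had 377, 719, 270.1, 2061 and 169 CPM in GC_RT, against 89.3, 45.0, 79.8 and 42.2 CPM in Ctrl_RT. The groups did not overlap and GC_RT 4 was again far the highest, with a difference of 3.49 ± 0.78 (adjusted p = 0.0123, edgeR). Its neighbours mt-Ti for isoleucine and mt-Tm for methionine had 2.89, 2.16, 0.762, 8.28 and 2.41 CPM and 3.57, 4.96, 3.77, 19.0 and 4.20 CPM in GC_RT, against 0.949, 0.178, 0.574 and 0.277 CPM and 3.25, 1.21, 1.62 and 1.02 CPM in Ctrl_RT. mt-Tm did not overlap between the groups and mt-Ti did, through GC_RT 3, and the differences were 2.73 ± 0.69 for mt-Ti and 2.00 ± 0.59 for mt-Tm.

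The cluster of minus-strand genes near the origin of light-strand replication moved in the same direction. Its alanine gene mt-Ta had 1.47, 4.32, 1.26, 16.4 and 3.36 CPM in GC_RT, against 0.973, 0.444, 0.548 and 0.192 CPM in Ctrl_RT (difference 3.31 ± 0.68, adjusted p = 0.00481, edgeR). The asparagine gene mt-Tn had 0.567, 1.78, 0.724, 7.26 and 1.61 CPM in GC_RT, against 0.522, 0.207, 0.679 and 0.298 CPM in Ctrl_RT (difference 2.47 ± 0.70, adjusted p = 0.0369). The cysteine gene mt-Tc had 1.30, 7.63, 1.83, 25.8 and 4.39 CPM in GC_RT, against 1.30, 0.769, 0.835 and 0.703 CPM in Ctrl_RT (difference 3.17 ± 0.67, adjusted p = 0.00619). In all 3, GC_RT 4 was the highest library and GC_RT 2 the next, and mt-Ta did not overlap between the groups while mt-Tn and mt-Tc did, through GC_RT 1.

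Within the copied stretch, mt-Ts1 had 47.3, 160.4, 43.6, 68.4 and 24.4 CPM in GC_RT, against 21.2, 8.79, 30.9 and 17.9 CPM in Ctrl_RT. GC_RT 2 was the highest, GC_RT 5 lay within the Ctrl_RT range, and the difference was 1.80 ± 0.42 (adjusted p = 0.0128, edgeR). mt-Tg, the other tested tRNA gene of the stretch, had only 1, 4, 12, 11 and 20 reads in GC_RT, against 1, 0, 2 and 2 reads in Ctrl_RT. These counts are few, and its difference of 3.59 ± 1.07 (adjusted p = 0.0487) had the largest SE relative to its size among the 19 calls.

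Past the stretch, the second serine gene mt-Ts2 had 0.510, 2.93, 0.457, 2.99 and 0.676 CPM in GC_RT, against 0.451, 0.266, 0.0783 and 0.171 CPM in Ctrl_RT. The groups did not overlap, and the difference was 2.60 ± 0.73 (adjusted p = 0.0365, edgeR). The second leucine gene mt-Tl2 had 0.624, 0.636, 0.343, 5.34 and 1.33 CPM in GC_RT, against 0.380, 0.355, 0.339 and 0.192 CPM in Ctrl_RT. GC_RT 3 lay among the Ctrl_RT libraries, and the difference was 2.38 ± 0.71 (adjusted p = 0.0481). At the end of the coding region, the threonine gene mt-Tt had 0.851, 1.65, 1.11, 6.14 and 1.73 CPM in GC_RT, against 0.949, 0.296, 0.339 and 0.107 CPM in Ctrl_RT (difference 2.43 ± 0.68). The proline gene mt-Tp on the opposite strand had 45.8, 92.3, 53.4, 384 and 70.6 CPM in GC_RT, against 32.5, 24.4, 21.9 and 14.2 CPM in Ctrl_RT (difference 2.47 ± 0.57). mt-Tp did not overlap between the groups, and mt-Tt did through GC_RT 1. The glutamate gene mt-Te (1.11 ± 0.44) and the tryptophan gene mt-Tw (2.08 ± 1.04) were not called.

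Without GC_RT 4, 13 members were called, 12 of them among the 19. The log2 fold change was then 1.23 for mt-Tl2, 1.21 for mt-Tm, 1.43 for mt-Tn, 1.65 for mt-Tt, 2.04 for mt-Ti and 2.16 for mt-Ts2, of which none was called. It was 1.49 for mt-Tp, 2.05 for mt-Tc, 2.25 for mt-Ta, 2.58 for mt-Tq and 2.85 for mt-Tv, all still called. mt-Tg was not tested there and mt-Co1 was called at 1.42, while without GC_RT 2 mt-Ts1 was called at 1.20. Over all members, 13 of 32 had every GC_RT library above every Ctrl_RT library, where 3.93% of all tested genes did, and 0 had the reverse. The number called was 6 without Ctrl_RT 4, 9 without Ctrl_RT 2 and 22 without GC_RT 1, and mt-Tf, mt-Tv, mt-Tl1, mt-Ta, mt-Tc and mt-Co2 were called whichever of the 9 libraries was left out. Without the libraries rich in brown adipocyte markers, GC_RT 1 and GC_CT 1, 27 were called. The 11 lymphocyte markers (0 to 4 of them at 0 in a GC_RT library, 0 or 1 in a Ctrl_RT library) summed to 76.6 to 226 CPM in GC_RT, against 365 to 490 CPM in Ctrl_RT, and the 16 macrophage markers to 1069.6 to 2474 CPM, against 863 to 1192 CPM. The 12 white adipocyte markers summed to 498932 CPM in GC_RT 2 and to 76709 to 171979 CPM in the other GC_RT libraries. In Ctrl_RT they summed to 103616 to 153545 CPM. Epithelial and epididymal markers summed to 1356 CPM in GC_RT 5, against 9.56 to 70.2 CPM in the other GC_RT libraries. They summed to 7.61 to 67.4 CPM in Ctrl_RT, and reached 3944 CPM in Ctrl_CT 4. The 12 endothelial markers, none at 0, summed to 469 to 1148 CPM in GC_RT, against 1084 to 1655 CPM in Ctrl_RT, and the 12 cell cycle genes, with 0 to 3 at 0 in a GC_RT library, to 5.98 to 22.6 CPM, against 19.1 to 44.8 CPM. The part of these cell markers in the result was not tested.

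**Figure D4:**
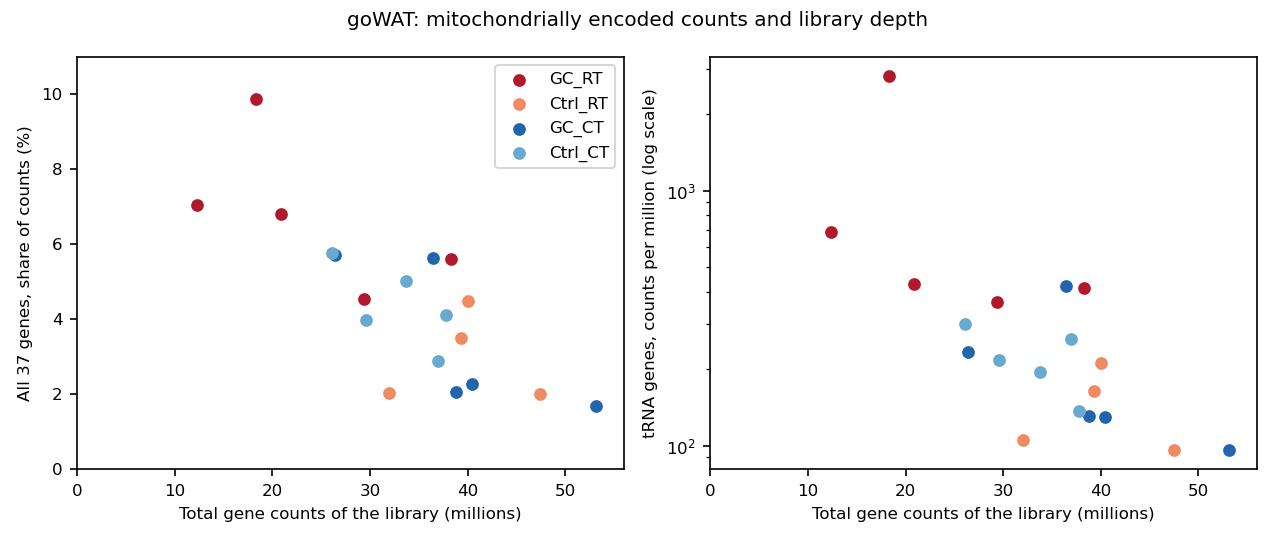
Share of counts in all 37 genes (percent, left) and counts per M in the tRNA genes (log axis, right) against total counts (M) for the goWAT libraries, 1 point per library, coloured by group. GC_RT libraries had 12.3 to 38.3 M counts and shares of 4.53% to 9.87%, against 32.0 to 47.5 M and 2.00% to 4.48% in Ctrl_RT.

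Calls among nuclear genes of the same machinery were about as few as among all genes in this comparison, of which 3.13% were higher and 2.85% lower. Of 76 nuclear subunit genes of complexes I to V, 2 were higher in GC_RT and 0 lower, with a median of 0.27, and these were Atp5g3, a c-ring subunit of the ATP synthase (1.69 ± 0.42, adjusted p = 0.018, edgeR), and Cox7c of complex IV (1.13 ± 0.31, adjusted p = 0.0298). Of 25 nuclear factors for mitochondrial transcription and RNA handling, 1 was lower, Mterf4, which acts in assembly of the mitochondrial ribosome (-0.80 ± 0.21, adjusted p = 0.0246). Of 14 tested regulators of mitochondrial biogenesis, 1 was lower, Gabpa, the DNA-binding subunit of a factor for nuclear respiratory genes (-0.79 ± 0.22, adjusted p = 0.0366). Of the 7 pseudogenes on chromosome 1, 5 were higher, with a median of 1.79, among them Gm28661 (2.34 ± 0.43), beside 2.25 ± 0.44 for mt-Co2. With the counts of the copies added to their mitochondrial genes, 22 members were called.

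The other comparisons in goWAT gave few calls with edgeR. In GC_CT against GC_RT, which asks what cold does under corticosterone, 1 member was lower and 0 higher (0.0149% of all genes were called, 0.00991% lower and 0.00496% higher). This was mt-Ts1, with 19.1, 11.8, 12.9, 15.1 and 8.07 CPM in GC_CT 1 to 5, against 47.3, 160.4, 43.6, 68.4 and 24.4 CPM in GC_RT 1 to 5. Every GC_CT library was below every GC_RT library, as held for 1 of 32 members and 0.748% of all genes. The difference was -2.36 ± 0.40 (SE, adjusted p = 0.0387, edgeR). All 32 members had negative fold changes, 28 (87.5%) with an unadjusted p under 0.05, beside 14.3% of all genes, around a median of -1.68, and mt-Co3 (-1.88 ± 0.38) and mt-Co2 (-1.91 ± 0.40) had the next smallest adjusted p, 0.0958 for both. mt-Co2 had 255, 107, 105, 124 and 103 CPM in GC_CT, of which GC_CT 1 alone reached into the GC_RT range. Total counts were 26.4 to 53.1 M in GC_CT, against 12.3 to 38.3 M in GC_RT, and with total count as a covariate mt-Ts1 had -1.27 and 0 members were called. DESeq2 called 15 members in this comparison, and 2.07% of all genes. The call of mt-Ts1 held in 3 of 9 other settings. The number called was 9 without GC_RT 1, 5 without GC_RT 5, 4 without GC_RT 3, 2 without GC_CT 1, and 0 without GC_RT 2, GC_RT 4 or any one of GC_CT 2 to 5.

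The interaction, that is the corticosterone effect at 13 °C minus that at 22 °C, had 0 members called in goWAT with edgeR (0.461% of all genes were called, 0.134% lower), 29 of 32 (90.6%) with an unadjusted p under 0.05, beside 13.4% of all genes, and 14 called with DESeq2, which called 2.05% of all genes. All 32 estimates were negative, the median was -2.23, and mt-Tc had the smallest adjusted p (-3.62 ± 0.87, adjusted p = 0.067). It was called for 7 members without GC_CT 1 and for 2 without GC_RT 1, 3 or 5, each left out alone. The comparisons that share the GC_RT libraries are not independent. In GC_CT against Ctrl_CT, 0 members were called with edgeR and 0 with DESeq2 (1.45% of all genes were called, 0.848% higher), 2 had an unadjusted p under 0.05, beside 15.4% of all genes, and the median was -0.15. The smallest p belonged to mt-Nd6 (-0.86 ± 0.37, adjusted p = 0.266) and mt-Rnr1. mt-Nd6 had 2133, 1179.5, 903, 889 and 778 CPM in GC_CT, against 3118, 2152, 2048, 1254 and 2089 CPM in Ctrl_CT. mt-Rnr2 had 5033, 10462, 892, 1629 and 1451 CPM in GC_CT, against 2401, 1126, 1588, 1001 and 2589 CPM in Ctrl_CT, a difference of 1.16 ± 0.59. Both overlapped between the groups, with GC_CT 2 far the highest for mt-Rnr2. In Ctrl_CT against Ctrl_RT, 0 were called with edgeR and 0 with DESeq2 (0.312% of all genes were called, 0.0198% higher), 1 had an unadjusted p under 0.05 (mt-Tl1, 1.40 ± 0.51, beside 6.79% of all genes), and the median was 0.55. mt-Nd6 and mt-Nd5 had 0.51 ± 0.40 and 0.68 ± 0.37 there. Genes that were not called are not shown to be unchanged.

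**Figure D5:**
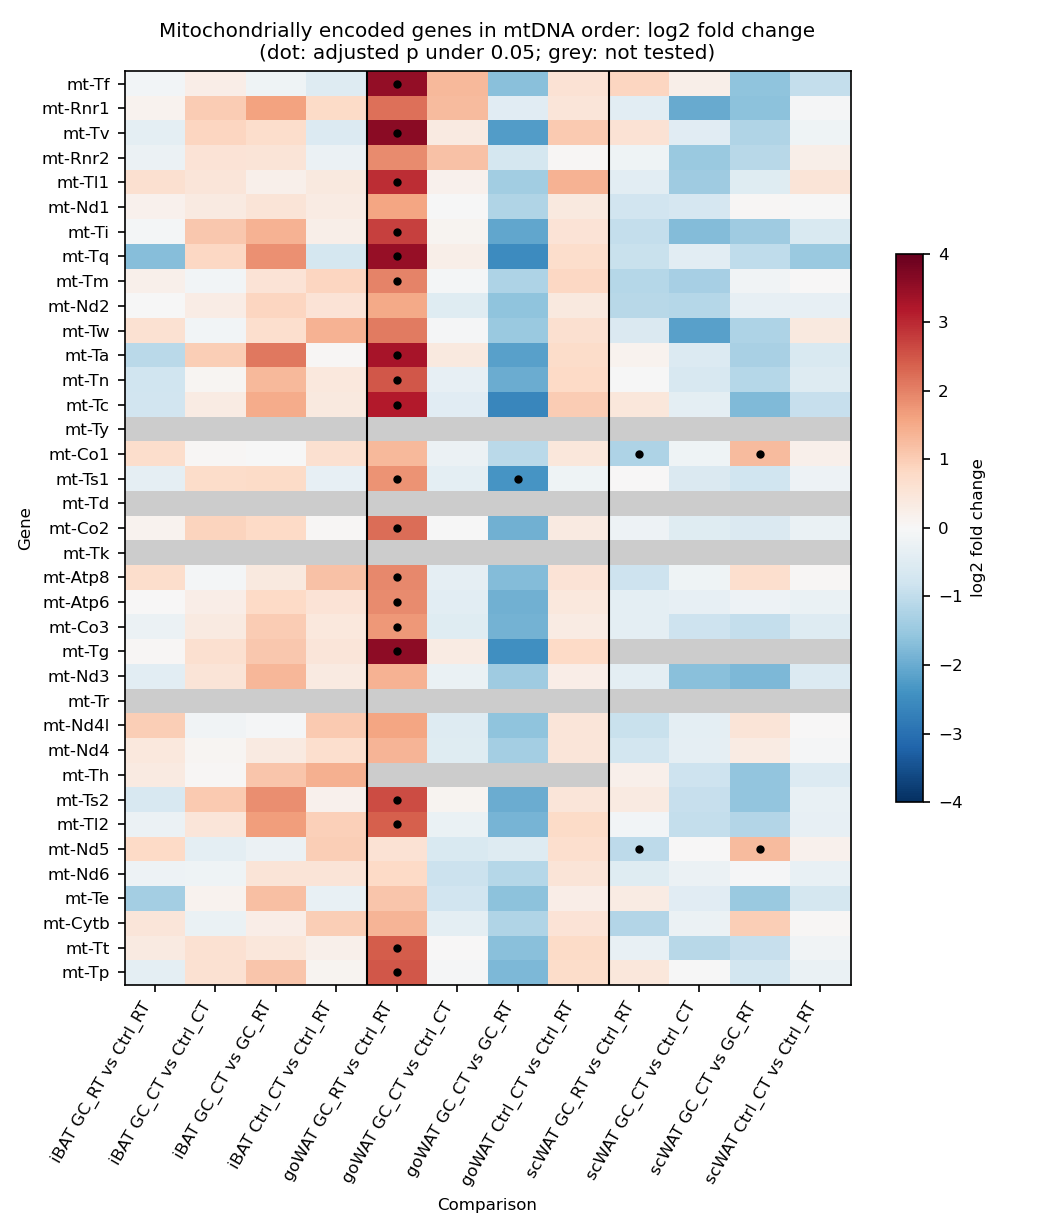
Log2 fold change (colour) of every member, in the order of mitochondrial DNA, in the 4 comparisons between groups of each depot, with a dot where the adjusted p was under 0.05 and grey where a member was not tested. The dots are 19 in goWAT GC_RT against Ctrl_RT, 1 in goWAT GC_CT against GC_RT, and 2 in each of scWAT GC_RT against Ctrl_RT and GC_CT against GC_RT.

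In scWAT, the share of members called under corticosterone at 22 °C was near that of all genes. In GC_RT against Ctrl_RT, the complex I gene mt-Nd5 and the complex IV gene mt-Co1, 2 of 32 members or 6.25%, were lower and 0 higher (6.93% of all genes were called, 3.45% lower and 3.48% higher). mt-Nd5 had 1779, 1749, 1447, 1914 and 1357 CPM in GC_RT 1 to 5, against 1699, 4392, 3452 and 4127 CPM in Ctrl_RT 1 to 4. Ctrl_RT 1 lay among the GC_RT libraries and the other 3 above them, and the difference was -1.05 ± 0.29 (SE; adjusted p = 0.0291, edgeR). mt-Co1 had 4052, 3713, 5569.6, 8557 and 4137 CPM in GC_RT, against 7354, 14819, 9359.9 and 17126 CPM in Ctrl_RT. GC_RT 4 was above Ctrl_RT 1, and the difference was -1.22 ± 0.36 (adjusted p = 0.0452). mt-Cytb came next (-1.16 ± 0.36, adjusted p = 0.0534) and was the 1 member with all GC_RT libraries below all Ctrl_RT libraries, as were 4.43% of all genes. The 13 protein genes all had negative estimates, with a median of -0.76, while the tRNA genes had a median of 0.01.

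The other members named for this depot were not called in that comparison. mt-Nd6 had 887, 1219.5, 2047, 3878 and 3285 CPM in GC_RT, against 3409, 3779.6, 2354 and 3191 CPM in Ctrl_RT (-0.49 ± 0.36). mt-Rnr1 had 238, 260.5, 993, 817 and 1393 CPM in GC_RT, against 1247, 1795, 297 and 599 CPM in Ctrl_RT (-0.41 ± 0.56), and mt-Rnr2 had 2747, 2435, 9133, 5827 and 7815 CPM in GC_RT, against 6335, 11464, 3018 and 4537 CPM in Ctrl_RT (-0.18 ± 0.42). Both rRNA genes varied several-fold within each group. Of the nuclear subunit genes, 17 of 76 were lower and 0 higher, with a median of -0.77, among them, by the smallest adjusted p, Cox8b and Cox7a1, complex IV isoforms of brown fat and muscle (-4.43 ± 0.51 and -2.43 ± 0.51), with Ndufa6 of complex I (-1.16 ± 0.26) and Cox5a of complex IV (-1.41 ± 0.32). The 12 brown adipocyte markers, a list that also holds Cox8b and Cox7a1, had 0 or 1 member at 0 in each library and summed to 77.4 to 207 CPM in GC_RT, against 676 to 3260 CPM in Ctrl_RT, and their part in the result was not tested. Of the regulators, the nuclear receptor Esrrg was lower (-3.54 ± 0.83), and of the RNA handling factors Mterf4 (-0.78 ± 0.22). Without GC_RT 2 and 3, the libraries rich in macrophage markers, 0 members were called, and the same held without any one of GC_RT 3, GC_RT 5 or Ctrl_RT 2, 3 and 4, while 1 was called without GC_RT 1 or GC_RT 2 and 5 without GC_RT 4.

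For cold under corticosterone in scWAT, the share of members called with edgeR was also no higher than that of all genes. DESeq2 called 7 of 32 members, and 14.7% of all genes. In GC_CT against GC_RT, mt-Nd5 and mt-Co1, 2 of 32 members or 6.25%, were higher and 0 lower (8.18% of all genes were called, 3.02% higher and 5.17% lower). mt-Nd5 had 4474, 4531, 4769 and 1988 CPM in GC_CT 1, 3, 4 and 5, each above all GC_RT libraries. This held for 1 of 32 members and for 3.33% of all genes. mt-Nd5 differed by 1.26 ± 0.29 (adjusted p = 0.0165, edgeR). mt-Co1 had 7075, 12821, 21723 and 8328 CPM in GC_CT, with GC_CT 1 and 5 below GC_RT 4, and differed by 1.26 ± 0.36 (adjusted p = 0.0383). All 17 tRNA genes and both rRNA genes had negative estimates in the same comparison, with medians of -1.21 and -1.37, and mt-Tc came nearest to a call (-1.78 ± 0.58, adjusted p = 0.0595). Of 76 nuclear subunit genes, 4 were higher and 2 lower. The 11 epithelial and epididymal markers, with 3 to 9 at 0 in a GC_CT library and 3 to 7 in a GC_RT library, summed to 0.146, 78.8, 308 and 361 CPM in GC_CT 1, 3, 4 and 5, against 0.306 to 3.44 CPM in GC_RT, so 3 of the 4 GC_CT libraries stood apart. The 16 macrophage markers, none of them at 0, summed to 585 to 717 CPM in GC_CT, against 832 to 12318 CPM in GC_RT. Without GC_CT 3, 4 and 5 and Ctrl_CT 3, 0 members were called, but GC_CT was then 1 library, and the part of these markers was not tested. The comparison uses the same GC_RT libraries as the one with Ctrl_RT, and without GC_RT 2 and 3 no member was called, nor without GC_CT 3 or GC_CT 4, while 1 was called without GC_RT 3 or GC_RT 5 and 7 without GC_RT 1.

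Corticosterone in the cold had 0 members called in scWAT with edgeR (2.59% of all genes were called, 1.14% lower), 8 (25%) with an unadjusted p under 0.05, all lower, beside 15.4% of all genes, and 5 called with DESeq2, which called 5.85% of all genes. Epithelial and epididymal markers, with 3 to 6 of 11 at 0 in a Ctrl_CT library, summed there to 0.546 to 94.7 CPM, beside the GC_CT values above. The rRNA genes had the smallest adjusted p. mt-Rnr2 had 2028, 3089, 1961 and 3390.0 CPM in GC_CT, against 4137, 8629, 4544, 9506 and 10147 CPM in Ctrl_CT. All GC_CT libraries were below all Ctrl_CT libraries, which held for 3 of 32 members (with mt-Tw and mt-Nd3) and for 4.17% of all genes, and the difference was -1.50 ± 0.44 (adjusted p = 0.0713, edgeR). mt-Rnr1 had 163, 346, 233 and 204 CPM in GC_CT, against 344, 780.5, 569.8, 974 and 2073 CPM in Ctrl_CT. GC_CT 3 and Ctrl_CT 1 were nearly level, and the difference was -2.00 ± 0.60 (adjusted p = 0.078). mt-Nd5 had 4132, 3713, 3539.9, 4878 and 3176 CPM in Ctrl_CT and a difference of 0.02 ± 0.29, mt-Co1 had 9898, 21175, 9865, 14013 and 14881 CPM in Ctrl_CT and a difference of -0.16 ± 0.37, and mt-Nd6 had 2502, 2824, 2265 and 1267 CPM in GC_CT, against 2191, 3019, 1886, 2541 and 3363 CPM in Ctrl_CT, a difference of -0.23 ± 0.36 with overlap. Of 76 nuclear subunit genes, 12 were lower and 0 higher, led by Cox7a1 (-3.05 ± 0.55) and Cox8b (-2.65 ± 0.50), with brown adipocyte markers at 154 to 672 CPM in GC_CT, against 1129 to 3865 CPM in Ctrl_CT. Of 14 regulators, Ppara was lower (-2.20 ± 0.46) and Pprc1 higher (1.08 ± 0.28). In Ctrl_CT against Ctrl_RT, 0 members and 0 genes in all were called with edgeR, 1 member had an unadjusted p under 0.05 (mt-Tq, -1.49 ± 0.51, beside 12.4% of all genes) and DESeq2 called 0. In the interaction, 0 members and 0 genes were called with edgeR, 2 members had an unadjusted p under 0.05 (mt-Nd5, 1.07 ± 0.41, and mt-Rnr2, -1.32 ± 0.60, beside 9.67% of all genes) and DESeq2 called 0.

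In iBAT, 0 of 33 members were called with edgeR in any of the 5 comparisons, where the share of all genes called was 0.664% for GC_RT against Ctrl_RT, 0.728% for GC_CT against Ctrl_CT, 0.0175% for Ctrl_CT against Ctrl_RT, 0.00583% for GC_CT against GC_RT and 0% for the interaction. DESeq2 called 4 in GC_CT against GC_RT and 0 in the other 4. Unadjusted p-values under 0.05 were found for 4 members in GC_RT against Ctrl_RT, 0 in GC_CT against Ctrl_CT, 5 in Ctrl_CT against Ctrl_RT, 12 in GC_CT against GC_RT and 4 in the interaction. Over all genes, the shares at that threshold were 11.1%, 10.1%, 8.74%, 15.5% and 6.4% in the same order, and over the members 12.1%, 0%, 15.2%, 36.4% and 12.1%. DESeq2 called 2.26% of all genes in GC_CT against GC_RT.

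Cell markers also differed between libraries of iBAT. The Ctrl_RT group held only 3 libraries, and its brown adipocyte markers summed to 9251, 5446 and 35758 CPM and its white adipocyte markers to 69130.1, 63085 and 25251 CPM in Ctrl_RT 1 to 3, so Ctrl_RT 3 stood apart from the other 2. Brown markers summed to 8134 to 16798 CPM in GC_RT, 9874 to 26291 CPM in GC_CT and 11602 to 23885 CPM in Ctrl_CT, and white markers to 15129 to 32182, 16064 to 45335 and 18752 to 37635 CPM in the same groups. By white markers, Ctrl_RT 1 and 2 lay above all other iBAT libraries. None of the 12 brown markers was at 0 in any of these libraries, and 0 to 2 of the 12 white markers were. Macrophage markers summed to 5149 CPM in GC_RT 5, against 116 to 551 CPM in the other iBAT libraries. The part of these markers in the values below was not tested.

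For corticosterone at 22 °C in iBAT, mt-Tq, mt-Nd5 and mt-Nd4l had the smallest p. mt-Nd5 had 6943, 6255, 6571, 8277 and 7812 CPM in GC_RT, against 4942, 3989 and 3373 CPM in Ctrl_RT. Its groups did not overlap, as was so upward for 4.29% of all genes, but the difference of 0.81 ± 0.33 had an adjusted p of 0.328 in edgeR. mt-Tq had 262, 219, 1092, 819.9 and 387 CPM in GC_RT, against 598, 630.5 and 4245 CPM in Ctrl_RT, with Ctrl_RT 3 far above the rest and a difference of -1.71 ± 0.68 (adjusted p = 0.316). mt-Nd4l had 36.7, 31.2, 149, 54.5 and 43.2 CPM in GC_RT, against 31.4, 28.6 and 36.2 CPM in Ctrl_RT, and a difference of 0.97 ± 0.40 (adjusted p = 0.346). The libraries of mt-Nd4l overlapped between the groups. mt-Nd6 had 3026, 2569, 3899, 5047 and 3908 CPM in GC_RT, against 3360.0, 2989.7 and 6311 CPM in Ctrl_RT, a difference of -0.19 ± 0.44. mt-Rnr2 had 13817, 10384, 33403, 24362 and 27325 CPM in GC_RT, against 19823, 12783 and 44034 CPM in Ctrl_RT, a difference of -0.22 ± 0.52. Both overlapped between the groups, with Ctrl_RT 3 the highest, and mt-Rnr1, with 2452, 1958 and 2445 CPM in Ctrl_RT, differed by 0.14 ± 0.59.

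For cold under placebo in iBAT, mt-Nd5, mt-Atp8 and mt-Nd4l had the smallest p. mt-Nd5 had 8408, 11750.0, 6909, 5227 and 7897 CPM in Ctrl_CT, all above Ctrl_RT, and a difference of 0.97 ± 0.33 (adjusted p = 0.376, edgeR). mt-Atp8 had 181, 235, 177, 255 and 132 CPM in Ctrl_CT, against 67.8, 60.1 and 134 CPM in Ctrl_RT, and overlapped through Ctrl_CT 5, with a difference of 1.17 ± 0.42. mt-Nd4l had 59.4, 80.2, 55.2, 88.2 and 50.6 CPM in Ctrl_CT, all above the 31.4, 28.6 and 36.2 CPM of Ctrl_RT, a difference of 1.06 ± 0.41. The 13 protein genes all had positive estimates there, 3 of 33 members did not overlap between the groups (3.94% of all genes upward), and the protein genes had a median of 0.56, beside 0.22 for the nuclear subunit genes and -0.04 for all tested genes.

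For cold under corticosterone in iBAT, mt-Ta, mt-Ts2 and mt-Rnr1 had the smallest p. mt-Ta had 49.5, 9.95, 16.6, 4.74 and 2.69 CPM in GC_CT, against 2.12, 1.87, 6.82, 5.81 and 2.76 CPM in GC_RT, a difference of 2.11 ± 0.63 (adjusted p = 0.155, edgeR). mt-Ts2 had 14.4, 4.01, 4.20, 1.62 and 0.999 CPM in GC_CT, against 1.06, 0.828, 1.81, 1.75 and 1.48 CPM in GC_RT, a difference of 1.85 ± 0.55. mt-Rnr1 had 20309.6, 4545, 8137, 4248 and 1431 CPM in GC_CT, against 1246, 939.7, 3658, 3797 and 2969.7 CPM in GC_RT, a difference of 1.62 ± 0.52. GC_CT 1 was far the highest library in all 3, and each overlapped between the groups. The tRNA genes had a median of 1.10 and the protein genes of 0.51.

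For corticosterone in the cold in iBAT, mt-Rnr1, mt-Ti and mt-Ts2 had the smallest p. mt-Rnr1 had 3647, 5864, 1943, 3677 and 4119 CPM in Ctrl_CT, a range that the GC_CT libraries spanned, and differed by 1.01 ± 0.51 (adjusted p = 0.523, edgeR). mt-Ti had 106, 22.4, 39.2, 12.2 and 8.09 CPM in GC_CT, against 13.3, 30.2, 9.13, 14.7 and 21.8 CPM in Ctrl_CT, a difference of 1.07 ± 0.54. mt-Ts2 had 1.45, 2.95, 2.50, 2.28 and 2.79 CPM in Ctrl_CT and differed by 1.06 ± 0.54. mt-Nd6 had 11067, 4969.7, 6263, 2264 and 1799 CPM in GC_CT, against 5179, 8072, 5121, 5141 and 6356 CPM in Ctrl_CT, a difference of -0.18 ± 0.38. mt-Rnr2 had 58042, 20079, 47538, 23789.9 and 7615 CPM in GC_CT, against 18625, 31582, 14839, 24603 and 18882 CPM in Ctrl_CT, a difference of 0.53 ± 0.45. In both, GC_CT 1 was the highest, GC_CT 5 the lowest and the groups overlapped. In the interaction, mt-Nd5 (-1.19 ± 0.43), mt-Tq (2.53 ± 0.91) and mt-Ta (2.06 ± 0.91) had the smallest p, each with an adjusted p of 0.765 in edgeR.

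The corticosterone effect at 22 °C differed between the 3 depots for 5 of 33 members by an edgeR F-test (0.742% of all genes). The members were mt-Tq (adjusted p = 0.0153), mt-Tl1 (0.0245), mt-Co1 (0.0245), mt-Ta (0.0326) and mt-Cytb (0.0414). For mt-Tq, the fold change of GC_RT against Ctrl_RT was -1.71 for iBAT, 3.49 for goWAT and -0.90 for scWAT on the log2 scale. As given above, iBAT Ctrl_RT 3 and goWAT GC_RT 4 were far the highest of their groups for mt-Tq. Without goWAT GC_RT 4, its goWAT fold change was 2.58. For mt-Co1, it was 0.69 for iBAT, 1.30 for goWAT and -1.22 for scWAT, and for mt-Cytb 0.48, 1.37 and -1.16 in the same depots. In each of the 5, goWAT had the highest value of the 3 depots. With 1 library left out, the number called was 0 without goWAT Ctrl_RT 4, 1 without iBAT Ctrl_RT 1, 2 without goWAT Ctrl_RT 2, goWAT GC_RT 4 or scWAT Ctrl_RT 2, and 3 without iBAT GC_RT 1, iBAT GC_RT 2, goWAT Ctrl_RT 3 or scWAT Ctrl_RT 4. It was 8 without scWAT GC_RT 4 and 9 without goWAT GC_RT 1 or goWAT GC_RT 5, and 0 with total count as a covariate. At 13 °C, 0 of 33 members were called with edgeR (0.234% of all genes), and 4 had an unadjusted p under 0.05, beside 12.3% of all genes. The smallest adjusted p was 0.111 for mt-Rnr1 in edgeR. DESeq2 called 1 member, and 1.23% of all genes.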

How the data were processed

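RNA of laser-captured fat areas from 55 libraries in 12 groups was measured as read counts. The deposited values are raw counts per gene, 1 table per depot with 31933 genes, and per the submitters' processing notes FastQC, GSNAP, featureCounts 1.6.3 and the mm10 build were used. How reads that fit several places were handled, whether strand was used and which annotation release was counted is not given in the sources used here. Replicates were not pooled. Gene symbols came from GENCODE M21, in which 31894 genes matched.

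Counts were fitted in edgeR 4.0.16 (R 4.3.3, limma 3.58.1) with its quasi-likelihood test, robust option, TMM scaling and filterByExpr, with 1 mean per group, within each depot and over all 55 libraries for comparisons between depots. Benjamini-Hochberg adjustment ran over all tested genes, with a call at an adjusted p under 0.05. CPM are counts per M (mega) of the TMM-scaled library size of the depot, and the SE is the log2 fold change divided by the square root of F. DESeq2 1.42.0, no filter, scaling without the mitochondrial genes, only the groups compared, the replicate number as a block and leaving out each library were alternatives; others were chosen after seeing the data, namely total count as a covariate, leaving out libraries that stand apart, and adding the counts of the chromosome 1 copies. The fit was tested on simulated data. Sequences were compared in windows of 50 bases. Python 3.11.15, pandas 2.3.3, numpy 2.4.6 and matplotlib 3.10.9 were used.

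All 37 members are accounted for. Values of every library were given for members in the comparison within a depot that called them, for the 3 with the smallest p where a depot had no call, and for mt-Nd6, mt-Rnr1 and mt-Rnr2 in at least 1 comparison of each depot; of nuclear lists, at most 4 called genes per comparison were named by adjusted p. Other members named were chosen after their values were seen. The members and lists were chosen with earlier results of these data known. Total counts per library were 8.62 to 56.5 M, which sets the counting error; several tRNA genes rest on few counts.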

Additional observations from a re-analysis of the deposited data

Results flagged for a closer look

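Of 150 sets of values examined, each of 1 measure in a group of 4 or 5 libraries, 19 had a library that stood apart by a Dixon test. Chance flags about 1 in 20 such groups if the values follow a normal distribution, which was not tested. Libraries share these values across genes, so they are not independent.

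Of the 19, 10 belonged to goWAT GC_RT 4, a library of 18.3 M counts, as the highest of 5. Its tRNA genes summed to 2822 counts per M, against 366 to 690 (689.8) in the other 4. Single tRNA genes stood apart there at 2.08 CPM for mt-Tf, 8.28 for mt-Ti, 19.0 for mt-Tm, 16.4 for mt-Ta, 7.26 for mt-Tn, 25.8 for mt-Tc, 5.34 for mt-Tl2, 6.14 for mt-Tt and 384 for mt-Tp.

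A further 6 belonged to goWAT GC_CT 1, the library with 2133 CPM of brown adipocyte markers, as the highest of 5. These were 255 CPM for mt-Co2, 219 for mt-Atp6, 119.6 for mt-Co3, 359 for mt-Tq, 2.03 for mt-Ti and 0.657 for mt-Ts2. The part of these markers was not tested.

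In the remaining 3, scWAT Ctrl_CT 5, the shallowest scWAT library, had 760.4 tRNA counts per M against 203 to 323 in the other 4. goWAT Ctrl_CT 2 was the lowest for mt-Ta at 0.603 CPM, and scWAT GC_CT 5 was the lowest for mt-Nd5 at 1988 CPM against 4474 to 4769.

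The corticosterone effect at 22 °C differed between depots by the edgeR F-test for mt-Tq (adjusted p = 0.0153), mt-Co1 and mt-Tl1 (0.0245 each), mt-Ta (0.0326) and mt-Cytb (0.0414), all highest in goWAT.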

How the results depend on the processing

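No result reversed. Members called with DESeq2 are given with the share of all genes that it called. They were 4 in iBAT GC_CT against GC_RT (2.26%), 15 in goWAT GC_CT against GC_RT (2.07%) and 14 in the goWAT interaction (2.05%). In scWAT they were 5 in GC_CT against Ctrl_CT (5.85%) and 7 in GC_CT against GC_RT (14.7%). For the corticosterone effect between depots they were 18 at 22 °C (3.43%) and 1 at 13 °C (1.23%). With no filter, 0 were called in goWAT GC_CT against GC_RT and 0 in scWAT GC_RT against Ctrl_RT, and with scaling without the mitochondrial genes 1 in that scWAT comparison. With only the compared groups, the counts were 0 in goWAT GC_CT against GC_RT, and in scWAT 0 in GC_RT against Ctrl_RT, 3 in GC_CT against Ctrl_CT and 0 in GC_CT against GC_RT. With total count as a covariate, they were 0 and 0 in goWAT GC_RT against Ctrl_RT and GC_CT against GC_RT, 1, 2 and 8 in scWAT GC_RT against Ctrl_RT, GC_CT against Ctrl_CT and GC_CT against GC_RT, 13 in goWAT against scWAT, and 0 and 1 between depots at 22 °C and 13 °C. Without goWAT GC_RT 2 and 4, 4 and 0 were called in the same 2 goWAT comparisons, and without goWAT GC_RT 1 and GC_CT 1, 0 in GC_CT against GC_RT and 8 in the interaction. With the copies added, 1 was called in scWAT GC_RT against Ctrl_RT. Without scWAT GC_RT 2 and 3, scWAT gave 0, 1 and 0 in the order above, and without scWAT Ctrl_CT 3 and GC_CT 3, 4 and 5 it gave 1 in GC_RT against Ctrl_RT and 0 in GC_CT against GC_RT, where GC_CT is then library 1 alone, assumed to vary like the other groups, so that 0 says little. The cause was not tested.

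With 1 library left out, counts ran from 6 to 22 in goWAT GC_RT against Ctrl_RT, 0 to 9 in goWAT GC_CT against GC_RT, 0 to 7 in the goWAT interaction, 0 to 5 in scWAT GC_RT against Ctrl_RT, 0 to 7 in scWAT GC_CT against GC_RT, 0 to 1 in scWAT GC_CT against Ctrl_CT, 16 to 26 in goWAT against scWAT, 32 to 33 in iBAT against scWAT, and 0 to 9 between depots at 22 °C.

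Same-numbered libraries within depots correlated at -0.424 to 0.380 in their deviations, so the numbers were not taken as a pairing. Within a depot they come from different groups, so this could not show animals shared between depots. Between depots, in the same condition, they correlated at -0.0861 to 0.349 for iBAT and goWAT. For goWAT and scWAT the range was -0.141 to 0.316, and for iBAT and scWAT -0.162 to 0.213. Whether depots share animals is not known from the labels, and the comparisons of depots took all 55 libraries as independent. With the replicate block, 17 members were called in goWAT GC_RT against Ctrl_RT (13 shared), 0 in goWAT GC_CT against GC_RT, 1 in scWAT GC_RT against Ctrl_RT and 3 between depots at 22 °C.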
